A study of Mus musculus with 18 samples.

Results

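The genes described here make up the steroid-producing machinery of the testis: Star, Cyp11a1, Cyp17a1, Hsd3b1, Hsd3b6, Hsd17b3, Insl3, Lhcgr, Nr5a1 and Srd5a1. They were followed in the whole testis of young mice, either homozygous for repro9, a mutation of Mybl1, or wild type. Mybl1 encodes A-MYB, which activates genes of spermatocytes in meiosis. Members were the probe sets annotated to 1 of these 10 genes alone, which gave 11 of the 45037 probe sets on the array and covered 6 genes, out of 18193 genes with such a probe set. The 6 were Star and Cyp11a1 with 3 probe sets each, Nr5a1 with 2, and Cyp17a1, Hsd3b1 and Hsd17b3 with 1 each. All 11 lay above the 40th percentile of their own array on at least 3 arrays and so were among the 34764 probe sets tested. Insl3 had only probe sets that it shares with Jak3, and Hsd3b6 only 1 that it shares with Hsd3b3 and Hsd3b2. Those shared probe sets are described as shared and are not counted as members. Lhcgr and Srd5a1 had no probe set in the annotation used here.

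The groups were repro9/repro9 testes at 14 days postpartum (dpp, 5 arrays), wild-type testes at 14 dpp (3 arrays), repro9/repro9 testes at 17 dpp (5 arrays) and wild-type testes at 17 dpp (5 arrays). Total RNA of the homogenised organ was labelled, so every cell type of the testis contributed, and no strain or treatment is given in the labels. Each value is a MAS5 signal, the array software's scaled brightness of 1 probe set, and the number of arrays limits its precision. The labels do not say whether each array came from a mouse of its own, so p-values measure the spread between arrays, which may be partly technical.

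Leydig cells lie between the seminiferous tubules and make androgens when luteinising hormone (LH) binds its receptor, the product of Lhcgr. STAR carries cholesterol into mitochondria, where CYP11A1 cleaves its side chain to give pregnenolone. HSD3B enzymes, CYP17A1 and, in adult Leydig cells, HSD17B3 then lead to testosterone, which steroid 5α-reductases such as that encoded by Srd5a1 reduce further. In the mouse testis a fetal Leydig cell population is replaced after birth by an adult one, and HSD3B6 is known as a marker of the adult cells. INSL3 is a peptide hormone of Leydig cells, and Nr5a1 encodes SF-1, a nuclear receptor that activates many of these genes and is also present in Sertoli cells.

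Promoters of 7 of the 10 genes were in the RefSeq table used (build GRCm38.p6), and 4 are shown because they belong to genes whose probe sets carry the results below. Each runs from 250 bases before to 50 bases after the annotated start, on the gene's own strand, and Cyp11a1 is shown for the downstream of its 2 annotated starts. Capitals mark AAGGTC or AGGTCA on either strand, 2 overlapping forms of the half-site that SF-1 binds. The regions are chr9:58014702-58015001 on the plus strand for Cyp11a1, chr3:98859745-98860044 on the minus strand for Hsd3b1, chr13:64089152-64089451 on the minus strand for Hsd17b3, and chr8:71689002-71689301 on the plus strand for Insl3.
Cyp11a1 promoter: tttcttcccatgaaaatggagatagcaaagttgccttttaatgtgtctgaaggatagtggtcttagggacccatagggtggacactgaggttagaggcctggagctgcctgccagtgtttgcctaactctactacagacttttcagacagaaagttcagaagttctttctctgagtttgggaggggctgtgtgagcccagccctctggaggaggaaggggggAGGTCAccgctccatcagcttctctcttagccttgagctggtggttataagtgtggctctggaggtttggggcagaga
Hsd3b1 promoter: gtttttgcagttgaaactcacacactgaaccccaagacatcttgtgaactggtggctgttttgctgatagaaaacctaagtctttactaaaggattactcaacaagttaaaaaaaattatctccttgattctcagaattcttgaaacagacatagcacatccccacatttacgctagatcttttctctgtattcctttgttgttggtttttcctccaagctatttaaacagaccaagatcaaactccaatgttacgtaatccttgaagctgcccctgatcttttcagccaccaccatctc
Hsd17b3 promoter: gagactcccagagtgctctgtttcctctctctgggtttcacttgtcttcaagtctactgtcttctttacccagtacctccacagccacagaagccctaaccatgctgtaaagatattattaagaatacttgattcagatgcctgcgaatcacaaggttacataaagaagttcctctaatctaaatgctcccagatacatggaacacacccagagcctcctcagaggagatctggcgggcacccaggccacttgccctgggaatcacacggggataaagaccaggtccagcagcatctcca
Insl3 promoter: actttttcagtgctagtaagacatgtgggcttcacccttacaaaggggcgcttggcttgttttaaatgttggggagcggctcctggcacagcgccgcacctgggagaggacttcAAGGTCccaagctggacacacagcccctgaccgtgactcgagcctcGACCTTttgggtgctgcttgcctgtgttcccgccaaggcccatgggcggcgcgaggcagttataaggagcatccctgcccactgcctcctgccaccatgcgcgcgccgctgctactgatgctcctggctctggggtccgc
The Insl3 window held AAGGTC at −136 and, on the other strand, at −90, counted from the start to the motif's first base. The Cyp11a1 window held AGGTCA at −28, and a window not shown, that of Lhcgr, held it at −122. Those of Hsd3b1, Hsd3b6, Hsd17b3, Srd5a1 and the upstream Cyp11a1 start held neither. Of all 32851 promoters of this length, 12.3% held AAGGTC and 16.3% held AGGTCA. The letters AACNG, the core that MYB proteins bind, occurred in 80.3% of all promoters on either strand, and in 6 of the 8 member windows.

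Before the comparisons, the arrays themselves were compared, since they fell into 3 groups, here called array sets, which no label mentions. The 3' to 5' ratio of the β-actin control probe sets was 2.31 to 2.92 on the 7 arrays of set 1, 1.45 to 1.495 on the 4 arrays of set 2 and 102.6 to 125.1 on the 7 arrays of set 3. Set 3 held only arrays of 17 dpp, 3 of mutants and 4 of wild type, and set 2 only arrays of 14 dpp, 3 of mutants and 1 of wild type. Set 1 held 2 arrays of each group except the wild type at 17 dpp, of which it held 1. Most values are therefore given also from a model with a term for the array set (the block fit) and within a set. The mutation's own gene had a geometric mean Mybl1 signal of 167 in mutants and 1831 in wild type at 17 dpp (adjusted p = 5.25e-05, limma). At 14 dpp it was 126 in mutants and 637 in wild type, a log2 difference of −2.33 ± 0.52 that did not pass (adjusted p = 0.112, limma).

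Signals of the members overlapped between genotypes at both ages, and at 17 dpp several of them differed more between array sets than between genotypes.

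**Figure D1:**
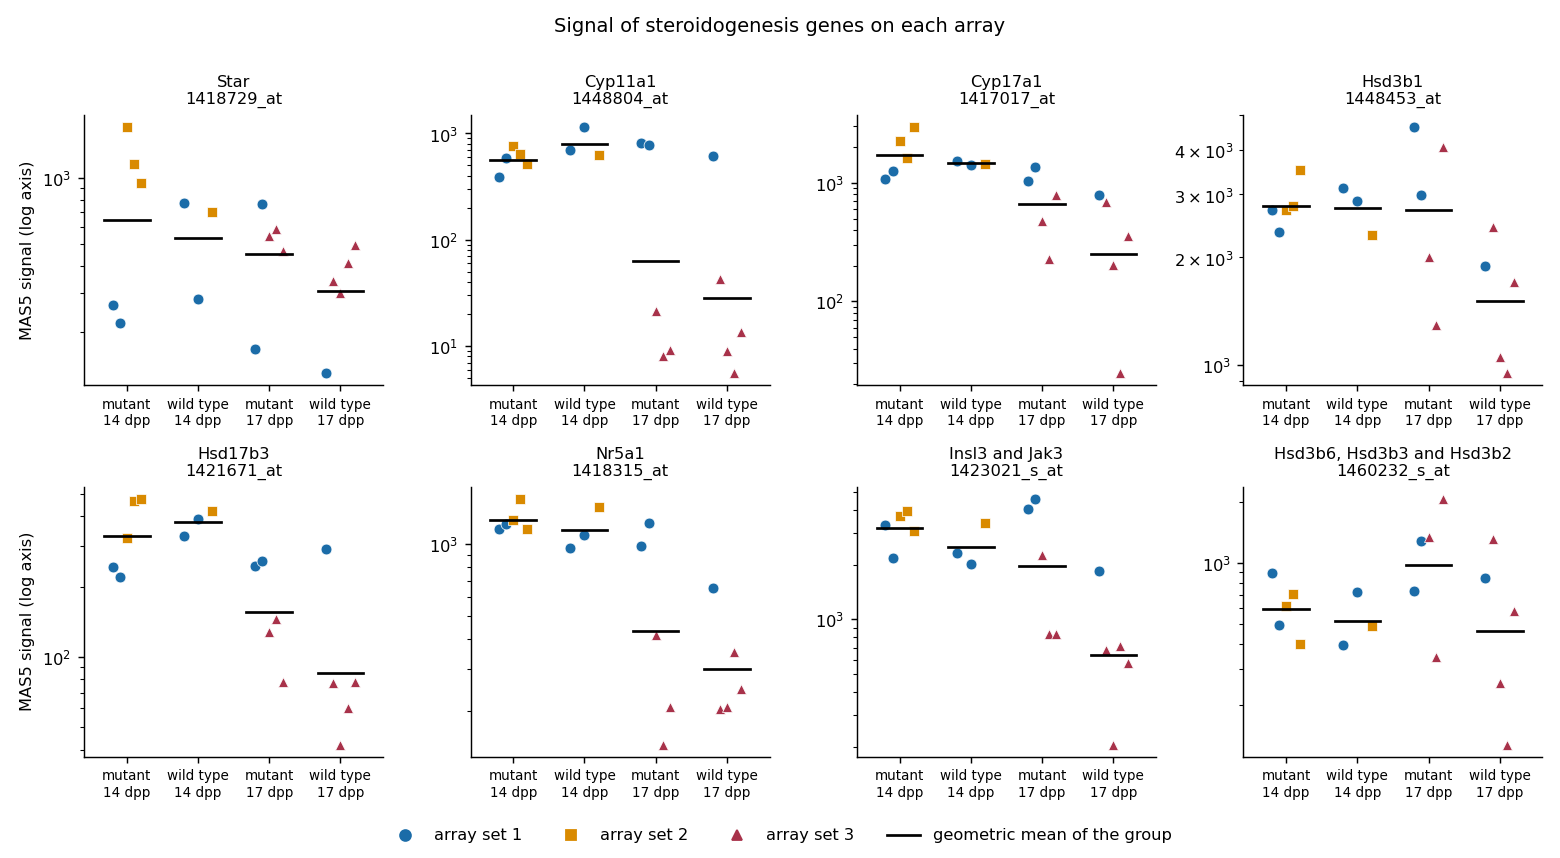
MAS5 signal (log axis) of the brightest probe set of each of the 6 genes and of the 2 tested shared probe sets, for the 4 groups. Each point is 1 array, its shape and colour give the array set, and the line is the group's geometric mean. At 17 dpp the Cyp11a1 probe set lies at 5.61 to 42.8 on the triangles of set 3 and at 611 to 822 on the circles of set 1.

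At 14 dpp no steroidogenesis gene passed the test between genotypes. None of the 11 member probe sets passed an adjusted p of 0.05 (limma with Benjamini-Hochberg adjustment, all adjusted p = 1), and none had an unadjusted p under 0.05, while 0.196% of all tested probe sets had such an adjusted p and 2.00% such an unadjusted p. In the block fit the count was again 0, where 0.368% of all probe sets passed. The median difference over the 11 was 0.14 on the log2 scale, against 0.06 over all tested probe sets. It was −0.19 in the block fit (0.02 over all) and −0.67 within set 1 (0.02 over all). A positive difference was seen in 7 of the 11 over the group means, 4 in the block fit and 2 within set 1. Of all tested probe sets 57.3%, 53.8% and 52.8% had a positive difference in these 3 fits.

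Cyp17a1, the enzyme that turns progestagens into androgens, gave signals of 1079, 1249, 2276, 1630 and 2941 in the 5 mutants, against 1521, 1419 and 1444 in the 3 wild types. The wild-type values lay within the mutant range. Hsd3b1, which encodes the 3β-hydroxysteroid dehydrogenase of fetal and adult Leydig cells, had signals of 2708, 2357, 2719, 2778 and 3508 in mutants and 3119, 2875 and 2312 in wild type. Its log2 difference of 0.02 ± 0.37 (SE) was close to 0.
Cyp11a1, by its brightest probe set, had 390, 588, 758, 638 and 515 in mutants, against 704, 1141 and 624 in wild type, a log2 difference of −0.49 ± 1.51. Hsd17b3, the testis enzyme that reduces androstenedione to testosterone, had 244, 221, 325, 464 and 475 in mutants and 328, 391 and 420 in wild type. In both genes the groups overlapped. Nr5a1 had 1147, 1210, 1254, 1535 and 1156 in mutants against 963, 1082 and 1418 in wild type, a log2 difference of 0.14 ± 0.56.

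Star, the transporter of the first and rate-limiting step, differed in direction between array sets at 14 dpp. Its brightest probe set gave 264, 221, 1702, 1164 and 953 in mutants, against 769, 283 and 701 in wild type. The 3 high mutant arrays were those of set 2 and the 2 low ones those of set 1. Its log2 difference was 0.27 ± 0.66 over all arrays, −0.95 within set 1 and 0.82 within set 2. Both other Star probe sets did the same, at −0.92 and −0.67 within set 1 and 0.56 and 0.54 within set 2. None of these within-set values passed (adjusted p = 1).

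At 17 dpp the members were mostly higher in mutants, by amounts that did not pass the test. Of the 11 probe sets 9 had a positive difference, as did 64.3% of all tested probe sets, and the members' median was 0.77 on the log2 scale against 0.25 over all. None passed an adjusted p of 0.05, where 5.33% of all probe sets passed and 1.48% passed as higher in mutants. At an unadjusted p under 0.05 there was 1, that of Hsd3b1, against 19.4% of all probe sets. Centring each array on its median lowered the median of all probe sets at 17 dpp to 0.11. In whole testis, more cells of a type and more RNA per cell cannot be told apart.

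Cyp17a1 showed the largest difference of the 11 member probe sets. It had 1047, 1369, 477, 227 and 797 in mutants, against 785, 690, 204, 25.0 and 353 in wild type. The highest arrays of both genotypes were those of set 1, and the groups overlapped. The log2 difference was 1.40 ± 0.71 (adjusted p = 0.293), 1.15 above the median of all probe sets, with 1.06 ± 0.62 in the block fit, 0.61 within set 1 and 1.23 within set 3.

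Hsd3b1 had 4621, 2983, 2006, 1293.5 and 4085 in mutants, against 1898, 2433, 1053, 951 and 1703 in wild type. Each wild-type array but the second lay below at least 4 of the 5 mutant arrays, though the groups overlapped. The log2 difference was 0.84 ± 0.32 (unadjusted p = 0.0176, adjusted p = 0.152, limma), with 0.72 ± 0.29 in the block fit, 0.97 within set 1 and 0.62 within set 3. The difference thus kept its direction in each set. When replicate 4, the lowest of the mutants, was left out it passed, at 1.11 (adjusted p = 0.0308, limma). The share of all probe sets that passed without that array is not given here.

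Hsd17b3 had 244, 257, 128, 146 and 78.2 in mutants, against 291, 76.9, 42.0, 60.6 and 78.0 in wild type. Within set 3 all 3 mutant arrays lay above all 4 wild-type arrays, the closest at 78.2 against 78.0. In set 1 the single wild-type array was the highest. The share of all probe sets that separated so within set 3 was not counted. The log2 difference was 0.87 ± 0.46 over all arrays (adjusted p = 0.303), 0.86 within set 3 (adjusted p = 0.0853) and −0.21 within set 1. When replicate 1 of the wild type, the array of set 1, was left out it passed at 1.32 (adjusted p = 0.0318, limma). The wild-type arrays were then all of set 3, while 2 of the 5 mutant arrays were of set 1. For Hsd17b3, set 3 minus set 1 was −1.14 in mutants and −2.22 in wild type. The share of all probe sets that passed without that wild-type array is not given here.

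Star gave by its brightest probe set 167, 762, 544, 590 and 469 in mutants, against 130, 343, 300, 413 and 495 in wild type. The lowest array of each genotype belonged to set 1, as did the highest mutant array, and within set 3 the ranges met only at the top of the wild type. Its log2 difference was 0.56 ± 0.57 (adjusted p = 0.632), and those of the other Star probe sets were 0.77 ± 0.67 and 0.82 ± 0.45. In the block fit the 3 were 0.75, 1.16 and 0.85, with adjusted p of 0.198, 0.0574 and 0.115.

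Nr5a1 and Cyp11a1 had smaller differences in the block fit than over all arrays. Nr5a1 had 976, 1215, 416, 145 and 207 in mutants, against 655, 205, 208, 352 and 248 in wild type. In both genotypes the arrays of set 1 were the highest. The log2 difference of 0.52 ± 0.49 over all arrays was 0.14 ± 0.25 in the block fit, 0.73 ± 0.48 within set 1 and −0.090 within set 3. Cyp11a1 had 822, 779, 21.5, 8.14 and 9.24 in mutants, against 611, 42.8, 9.08, 5.61 and 13.7 in wild type. All 7 arrays of set 3 lay below the 40th percentile of their array, and the 3 arrays of set 1 above it. The log2 difference of 1.17 ± 1.31 was −0.01 ± 0.45 in the block fit, 0.39 within set 1 and −0.16 within set 3, where the signals were dim.

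The remaining Cyp11a1 and Nr5a1 probe sets were dimmer. The second Cyp11a1 probe set ran from 40.3 to 282 over all 18 arrays, above the 40th percentile on 13 of them, and its difference at 17 dpp was 0.21 ± 0.50. The dimmest Cyp11a1 probe set ran from 1.29 to 204. The dimmer Nr5a1 probe set ran from 3.58 to 113. The dimmest Cyp11a1 and Nr5a1 probe sets were above their array's 40th percentile on 3 and 4 of the 18 arrays, so their differences at 17 dpp, −0.97 ± 1.27 and −0.21 ± 0.91, describe dim signals.

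Of the probe sets shared with other genes, that of Insl3 had the larger difference at 17 dpp. The tested probe set annotated to both Insl3 and Jak3, a kinase of lymphocytes, gave 4037, 4582, 2258, 834 and 830 in mutants. In wild type it gave 1839, 682, 206, 715 and 574. Within each array set every mutant array of 17 dpp lay above every wild-type array. In set 1 these were only 2 mutant arrays and 1 wild-type array. How many of all probe sets separated in this way was not counted. The log2 difference was 1.62 ± 0.52 (adjusted p = 0.0851) and passed in the block fit, at 1.24 ± 0.32 (adjusted p = 0.0106, limma), while none of the 11 members did. In that fit 18.8% of all probe sets passed. Within set 1 it was 1.23 and within set 3 it was 1.24 (adjusted p = 0.0549). Which of the 2 genes gave the signal was not tested, and the other probe set of this pair ran from 2.88 to 50.6, above the 40th percentile on 0 of 18 arrays.

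The probe set shared by Hsd3b6, Hsd3b3 and Hsd3b2 gave 729, 1277, 1349, 345 and 2065 in mutants and 845, 1311, 256, 128 and 582 in wild type. The ranges overlapped, and the log2 difference was 1.08 ± 0.55 (adjusted p = 0.29), with 0.19 within set 1 and 1.31 within set 3. At 14 dpp both shared probe sets differed little, by 0.34 ± 0.60 for Insl3 and Jak3 and by 0.21 ± 0.63 for the Hsd3b genes.

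**Figure D2:**
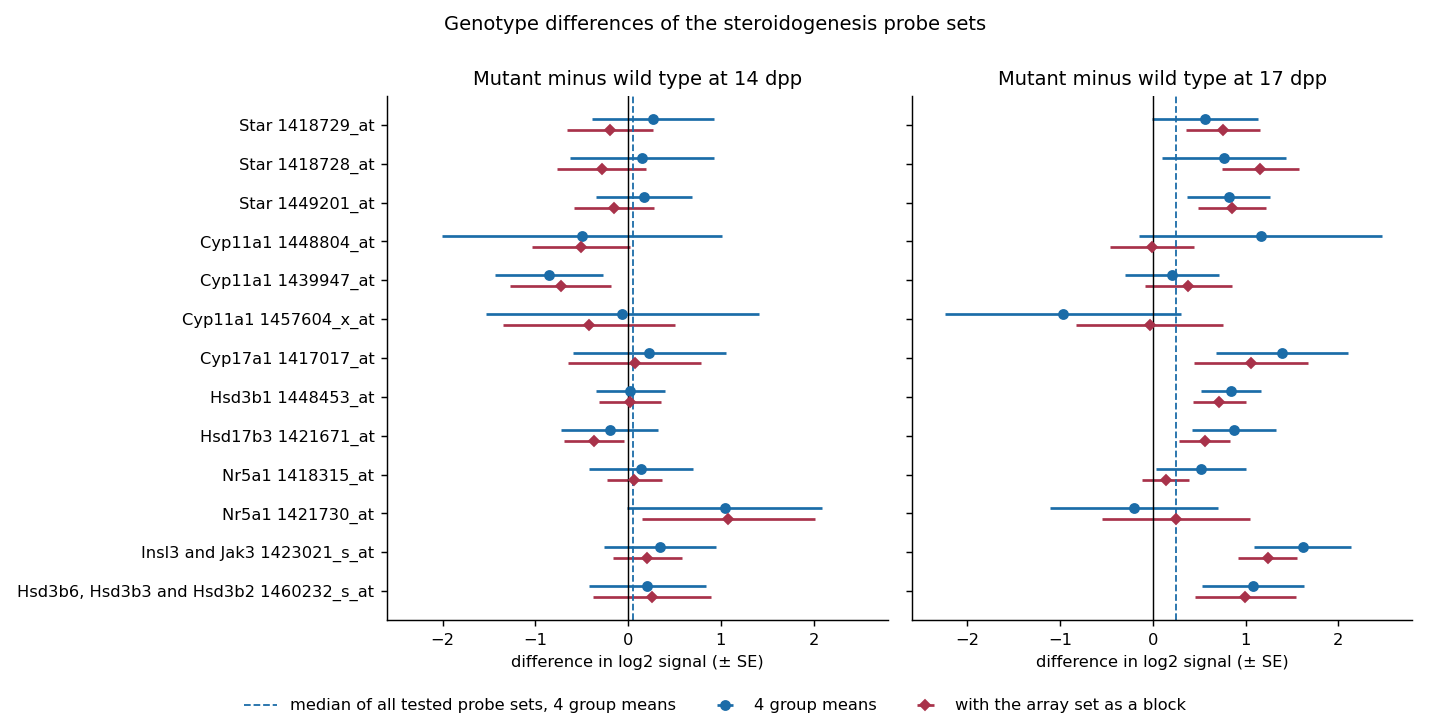
Difference in log2 signal, mutant minus wild type, at 14 dpp (left) and 17 dpp (right) for the 11 member probe sets and 2 shared ones, with SE bars from limma. Circles are the fit of 4 group means, diamonds the block fit, and the dashed line the median of all tested probe sets. At 17 dpp most circles lie right of that line, and the Cyp11a1 circle at 1.17 has its diamond at −0.01.

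Whether the genotype difference itself changed between the ages was tested as the difference at 17 dpp minus that at 14 dpp. No member passed (all adjusted p from 0.963 to 0.987), where 0.204% of all probe sets did, and 0 had an unadjusted p under 0.05, where 5.61% did. The values for the brightest probe sets ran from 0.29 for Star to 1.66 for Cyp11a1. With the block Star was 0.95, Cyp11a1 0.50 and Nr5a1 0.073, and again no member passed (lowest adjusted p = 0.358, limma), where 1.20% of all probe sets did. In that fit 2 members had an unadjusted p under 0.05, the second Star probe set and Hsd17b3, as did 12.6% of all probe sets. Taken over both ages, the genotype difference had a median of 0.41 over the 11 member probe sets and 0.18 over all. None passed (2.77% of all did), and none had an unadjusted p under 0.05 (11.9% of all did).

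With age, several steroidogenesis genes were lower at 17 than at 14 dpp in wild type over all arrays, and none of them passed on the arrays of set 1 alone. Array set 3 held 4 of the 5 wild-type arrays of 17 dpp. The trimmed mean signal (2% off each end) was 394.8 on its arrays, against 499.9 on those of sets 1 and 2. The median difference over the 11 member probe sets was −0.86, against −0.44 over all tested probe sets. Of the 11 member probe sets 4 passed, all lower at 17 dpp, while 21.4% of all probe sets passed and 16.5% passed as lower. They were Hsd17b3 (−2.15 ± 0.53, adjusted p = 0.0131), Nr5a1 (−1.92 ± 0.56, adjusted p = 0.0253), Cyp11a1 (−4.81 ± 1.51, adjusted p = 0.0335) and Cyp17a1 (−2.55 ± 0.82, adjusted p = 0.0367). For Cyp11a1, 4 of the 5 wild-type arrays of 17 dpp lay below their array's 40th percentile, so its difference is against a dim signal. In these 4 genes the wild-type arrays of 17 dpp did not overlap those of 14 dpp. How many of all probe sets separated in this way was not counted. The geometric mean signal of Cyp17a1 was 250 at 17 dpp and 1461 at 14 dpp, and that of Hsd17b3 was 85.0 at 17 dpp and 378 at 14 dpp.

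On the arrays of set 1 alone the same 4 were −0.30 ± 0.50 for Hsd17b3, −0.64 ± 0.48 for Nr5a1, −0.55 ± 0.89 for Cyp11a1 and −0.90 ± 1.22 for Cyp17a1, and none passed. No member passed in the block fit either, where 7.63% of all probe sets passed. Without the arrays of set 3 the count was again 0. Leaving out 1 wild-type array at a time lowered the count to 0 without replicate 1 or replicate 3 of 14 dpp. It was 1 without replicate 2 of 14 dpp, replicate 3 or replicate 5 of 17 dpp, and 2 without replicate 2 of 17 dpp. The shares of all probe sets that passed in these left-out fits are not given here, so a loss over all probe sets cannot be told apart. Of the 6 brightest probe sets, that of Star had the largest difference on set 1, at −1.84 ± 0.69 (unadjusted p = 0.0169, adjusted p = 0.209, limma) in wild type.

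In mutants the median difference between 17 and 14 dpp was −0.65 over the 11 member probe sets and −0.34 over all. No member passed (1.92% of all probe sets did), and 3 had an unadjusted p under 0.05, as did 29.5% of all. The 3 were Nr5a1 (−1.54 ± 0.49, adjusted p = 0.075), Cyp11a1 (−3.15 ± 1.31) and Hsd17b3 (−1.08 ± 0.46). When replicate 1 or replicate 2 of the 17 dpp mutants, both of set 1, was left out, Nr5a1 (−1.84 and −1.91) and Cyp11a1 (−4.07 and −4.05) passed. Nr5a1 also passed when wild-type replicate 1 of 17 dpp was left out. The shares of all probe sets that passed without these arrays are not given here. On set 1 alone the differences of Nr5a1, Cyp11a1 and Hsd17b3 were −0.11, 0.74 and 0.11. In mutants Hsd3b1 had a geometric mean of 2710 at 17 dpp and 2790 at 14 dpp, a log2 difference of −0.04 ± 0.32. In wild type the Hsd3b1 mean was 1511 at 17 dpp and 2747 at 14 dpp, a difference of −0.86 ± 0.37 that did not pass (adjusted p = 0.0997).

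**Figure D3:**
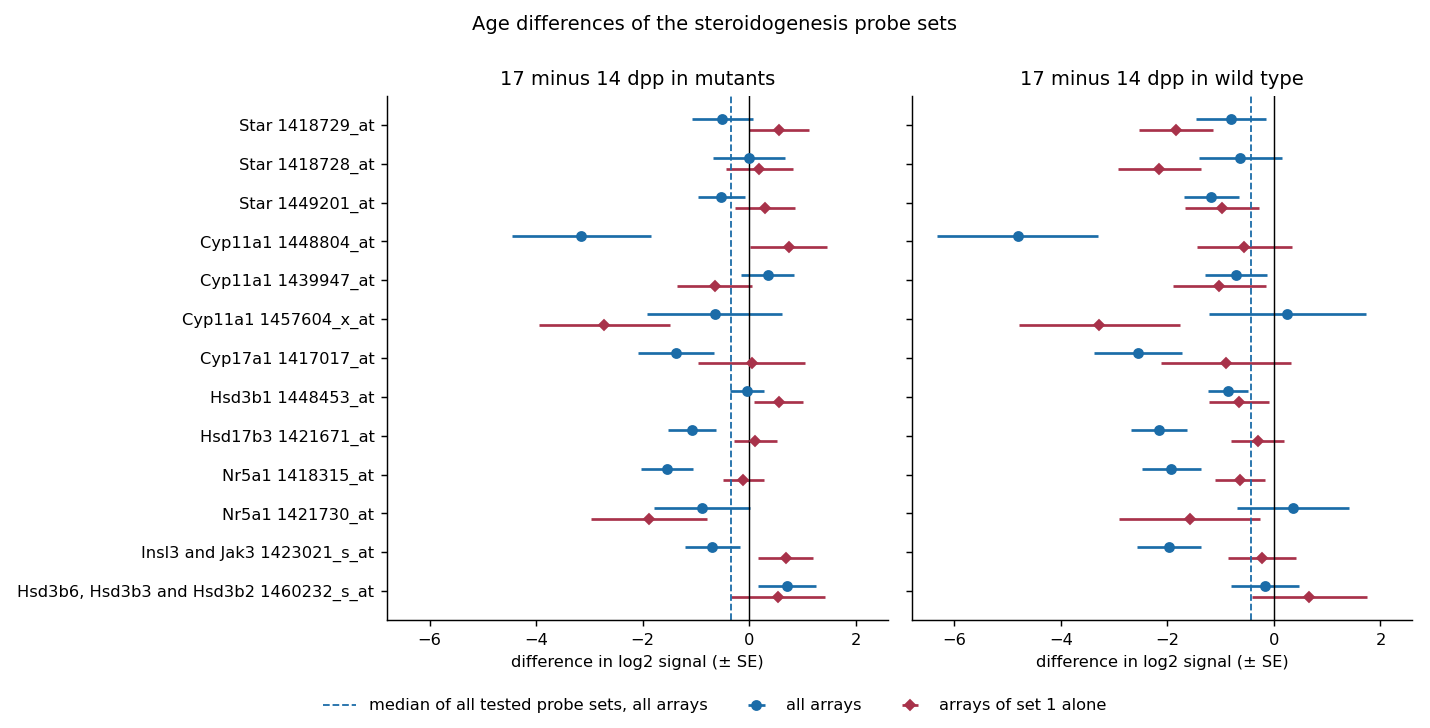
Difference in log2 signal, 17 minus 14 dpp, in mutants (left) and wild type (right), with SE bars from limma. Circles use all arrays, diamonds the arrays of set 1 alone, and the dashed line is the median of all tested probe sets. The wild-type Cyp11a1 circle lies at −4.81 and its diamond at −0.55.

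Within 17 dpp, the step between array sets 3 and 1 differed in sign between members. The brightest Cyp11a1 probe set was −6.09 (log2, set 3 minus set 1) in mutants and −5.54 in wild type, though its set 3 signals all lay below the 40th percentile. The second Star probe set was 1.82 in mutants and 2.18 in wild type. For Cyp17a1 the step was −1.44 in mutants and −2.06 in wild type, and for Nr5a1 it was −2.23 in mutants and −1.41 in wild type. The median step of all probe sets was −0.10 in mutants and −0.16 in wild type. Hsd3b1 had a smaller step, of −0.76 in mutants and −0.41 in wild type.

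Across the 18 arrays, with each array set's mean taken off, 12 of the 15 pairs of member genes correlated positively, with a median Pearson r of 0.21 (0.64 as measured). These are descriptions, since the arrays share genotype, scaling and RNA of the same organ. The closest pair was Cyp17a1 and Hsd3b1 (r = 0.748), followed by Cyp11a1 and Cyp17a1 (r = 0.598). The highest r of Star with another member was 0.267. Nr5a1 correlated at −0.216 with Cyp17a1. Among non-members, the 8 genes most like the mean of the members were Wfdc18 (r = 0.869), Aldh1a1 (0.867), Dock8 (0.859), Chpt1 (0.829), Ier3 (0.826), Ostf1 (0.825), Atp6v0e (0.817) and Mei1 (0.814). Aldh1a1, which encodes a retinaldehyde dehydrogenase, ran from 7746 to 29270 over the arrays, and which cells gave its signal was not tested.

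The steps around steroid synthesis were read from lists of genes, each gene by its brightest tested probe set. Of 10 tested genes of cholesterol uptake and transport, 1 rose in mutants at 17 dpp, where 1.48% of all probe sets rose. It was Tspo, a cholesterol-binding protein of the outer mitochondrial membrane, with geometric means of 709 in mutants and 342 in wild type (1.05 ± 0.30, adjusted p = 0.0466, limma). In the block fit 4 of the 10 rose and none fell, where 10.8% of all probe sets rose. They included Tspo (1.003) and 2 of the brightest genes of the list, the HDL receptor gene Scarb1 (0.95, adjusted p = 0.0177) and the sterol exporter gene Abca1 (0.63, adjusted p = 0.00181). The list's median difference was 0.68 over the 4 group means.

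Cholesterol synthesis moved in both directions. Of 11 tested genes none passed over the group means. In the block fit 10.8% of all probe sets rose and 2799 of 34764 fell. Of the 11 genes 4 rose in that fit, among them Hmgcs1 (0.43, adjusted p = 0.0372, limma), and 1 fell. The one that fell was Fdft1, which encodes squalene synthase (−0.66, adjusted p = 0.0343). The electron donors and enzymes of androgen metabolism had 2 of 6 tested genes called as higher in mutants at 17 dpp, where 1.48% of all probe sets were. They were Cyb5a, whose product cytochrome b5 aids the lyase reaction of CYP17A1 (0.64 ± 0.16, adjusted p = 0.0207, limma), and Cyp1b1 (1.003 ± 0.28, adjusted p = 0.0446, limma). Cyb5a had geometric means of 8923 in mutants and 5737 in wild type. Fdx1, the ferredoxin that passes electrons to CYP11A1, had means of 3508 in mutants and 3537 in wild type.

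Among relatives of the HSD3B and HSD17B enzymes 1 of 8 tested genes rose, Hsd17b11 (0.73 ± 0.19, adjusted p = 0.0322, limma), where 1.48% of all probe sets rose. With the block 3 did, Hsd17b7 and Hsd17b12 among them, where 10.8% of all rose. Over the group means 1341 of all 34764 probe sets fell at 17 dpp. Of 16 tested genes of LH signalling and transcription control 1 fell and none rose. It was Pde8a, a phosphodiesterase that degrades the cyclic AMP formed after LH binding, with geometric means of 967 in mutants and 4346 in wild type at 17 dpp (−2.17 ± 0.30, adjusted p = 0.000116, limma). At 14 dpp its means were 1242 in mutants and 1346 in wild type, a difference of −0.12 ± 0.35. Which cells of the testis gave the Pde8a signal was not tested. Gnas, which encodes the stimulatory G protein α subunit, and Prkaca, the catalytic subunit of protein kinase A, had differences of 0.57 and 0.58 at 17 dpp that did not pass over the group means. In the block fit 10.8% of all probe sets rose and 2799 of 34764 fell. Of the 16, 3 rose in that fit and 2 fell, Pde8a among them. Those that rose included Prkaca (0.56, adjusted p = 0.0303) and Prkar2b, a regulatory subunit of the same kinase (0.80, adjusted p = 0.0317), while Gnas did not pass (0.52, adjusted p = 0.0861).

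Of 16 tested genes of the Leydig lineage other than the members, 1 rose over the group means, where 1.48% of all probe sets rose. The block fit had 9 of the 16 rising, where 10.8% of all probe sets rose. The list's median was 0.68 over the group means and 0.55 in the block fit, against 0.25 and 0.24 over all probe sets. Amhr2, the anti-Müllerian hormone receptor of Leydig and Sertoli cells, was the one called in both (0.91 ± 0.21, adjusted p = 0.013, limma), with geometric means of 24320 in mutants and 12970 in wild type. In the block fit Igf1 (0.82), Pdgfra (0.68) and Aldh1a1 (0.46) were called too. The range of the list's summed signal was 50570 to 75610 in mutants and 32660 to 49090 in wild type at 17 dpp, which did not overlap. The sum is weighted to the brightest genes, Amhr2 and Aldh1a1, the latter with geometric means of 18540 in mutants and 15780 in wild type. How often sums of other genes separate so was not tested, nor was which cells gave these signals.

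Signals from Sertoli cells to Leydig cells and androgen-responsive Sertoli genes had positive medians at 17 dpp, of 0.49 over 7 genes and 0.99 over 6 genes, and none was called over the group means. With the block 3 of the 7 and 2 of the 6 rose, where 10.8% of all probe sets did. They were Dhh, the hedgehog ligand that Leydig progenitors need (0.80, adjusted p = 0.00102), Igf1r (0.69), Kitl (0.61), the protease inhibitor Eppin (0.76, adjusted p = 0.00738) and Drd4 (1.08, adjusted p = 0.015). Rhox5, a homeobox gene that androgens induce in Sertoli cells, had 0.80 ± 0.43 over the group means and 0.47 in the block fit, and passed in neither.

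Markers of other cell types were compared at 17 dpp in the same way. Over the group means none of the Sertoli, peritubular myoid or endothelial markers was called, and in the block fit 5 of 12 Sertoli, 1 of 7 myoid, 3 of 9 macrophage and 0 of 8 endothelial markers rose, where 10.8% of all probe sets did. All 12 tested Sertoli markers had a positive difference, with a median of 0.46 and a summed signal of 90220 to 121300 in mutants and 59570 to 91540 in wild type. All 9 macrophage markers did, with a median of 1.03 and sums of 6669 to 11020 in mutants and 3377 to 7165 in wild type. Of these 9, 1 was called over the group means, Csf1r (0.90, adjusted p = 0.0375, limma), where 1.48% of all probe sets rose. The 7 peritubular myoid markers had a median of 0.42 and sums of 12600 to 21440 in mutants against 8662 to 16320 in wild type. The 8 endothelial markers had a median of 0.44 and sums of 748.5 to 1306 in mutants against 400.8 to 877.6 in wild type. Of the 10 pachytene spermatocyte markers 9 fell over the group means, where 1341 of all 34764 probe sets did. The median of the 10 was −4.89, with sums of 11250 to 40490 in mutants and 76320 to 172100 in wild type. The part of these cell types in the members' differences was not tested.

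Of the adrenal cortex genes Cyp11b1, Cyp11b2 and Mc2r each lay above their array's 40th percentile on at most 2 of 18 arrays. The other 2, Cyp21a1 and Mrap, did so on 16 arrays each by their brightest probe sets, with medians of 125 and 171 over the arrays. A second probe set of each did so on 1 array for Cyp21a1 and 0 for Mrap. The brightest probe sets of these 2 genes summed to 211 to 600 in mutants and 80.0 to 312 in wild type at 17 dpp. The 3 tested epididymis genes summed to 92.3 to 235 in mutants and 121 to 284 in wild type. At 14 dpp, where no member passed, pachytene markers already fell in 8 of 10 genes, as did 68 of all 34764 probe sets. The Sertoli, macrophage, myoid and endothelial medians at 14 dpp were 0.05, 0.29, 0.28 and 0.24 with none called.

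**Figure D4:**
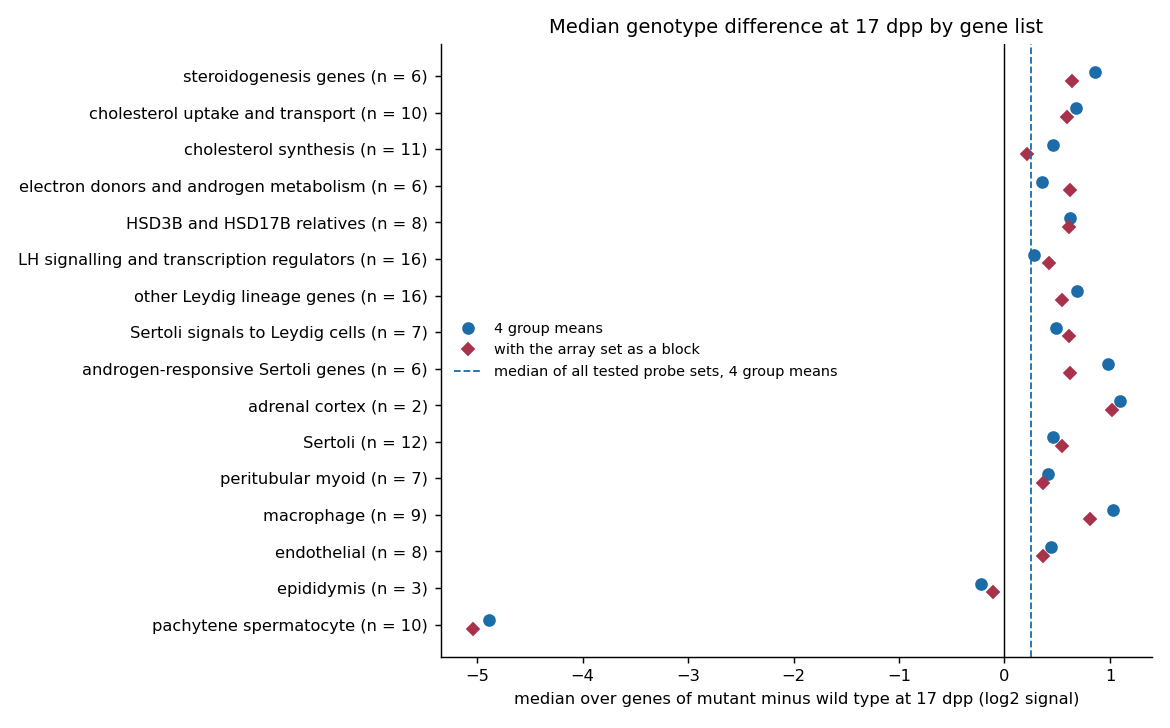
Median over each list's tested genes of the log2 difference, mutant minus wild type, at 17 dpp. Circles are the fit of 4 group means, diamonds the block fit, and the dashed line the median of all tested probe sets at 0.25. The steroidogenesis genes lie at 0.86 and 0.64, among the somatic lists, and the pachytene list lies at −4.89.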

How the data were processed

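Whole-testis RNA was measured on 18 arrays, and the deposited values are MAS5 signal intensities, not log-transformed. The series' design text names Affymetrix GCOS as the software the authors used, and the submitters' processing notes name MAS5 without a version. Per the labels, cRNA was made from 6 ug of total RNA. The trimmed mean (2% off each end) was about 499.9 on the arrays of sets 1 and 2 and 394.8 on those of set 3, and no further normalization was added. No test used the 64 control probe sets. The other 45037 comprised 34945 with 1 annotated gene, 932 with several and 9160 without any.

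The log2 intensities of all 18 arrays entered 1 limma model (version 3.58.1, R 4.3.3) with a mean for each group, which left 14 residual degrees of freedom. Variances were moderated by empirical Bayes along an intensity trend. Two-sided p-values were adjusted by Benjamini-Hochberg over 34764 probe sets, those that exceeded the 40th percentile of the array concerned on 3 or more arrays. The fit was tried on simulated data that held no array sets, so that trial does not bear on differences between the sets. A fit with the array set as a block had 12 residual degrees of freedom, and within-set fits, which share the spread of all arrays, had 10, where a lone array takes its spread from the rest. Array sets were bounded at β-actin ratios of 1.9 and 10. A ± is the standard error from limma.

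A gene was named where it is a member (every probe set, with the brightest one where 1 value is given). In the other lists it was named if called in a genotype contrast or among the 4 brightest, with all lists counted. The 8 genes most like the members were ranked by Pearson r. The members, lists and array sets were chosen with earlier results of these data known. Same-numbered arrays deviated from their group means together at 14 dpp (r = 0.283, 0.355 and 0.385 over probe sets). Each of those pairs also lay in 1 array set. At 17 dpp r was 0.777, 0.226, 0.385 and 0.207 for the pairs within 1 array set. It was −0.228 for replicate 2, whose pair was split between sets 1 and 3. A shared number and a shared array set cannot be told apart here, so the numbers were not taken as pairs. No pair of arrays of a group correlated above 0.942. Promoters came from RefSeq (GRCm38.p6) and were scanned on both strands. Detection calls were not analysed here.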

Additional observations from a re-analysis of the deposited data

How the results depend on the processing

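Each of the 6 contrasts was refitted under up to 33 other settings, 18 of which left out 1 array. For those 18 the share of all probe sets called is not given here. The count of member probe sets called was 0 at 14 dpp except with array weights, where it was 1. With those weights 3409 of all 34764 tested probe sets rose and 1948 fell at 14 dpp. At 17 dpp the count was 0 except for 2 with the replicate block, and 0 to 1 when single replicates were left out. The 2 were Cyp17a1 (1.40, adjusted p = 0.0287, limma) and Hsd3b1 (0.84, adjusted p = 0.0185, limma). With the replicate block 1806 of all 34764 probe sets rose and 1814 fell. Replicate numbers were not shown to pair the arrays at 17 dpp. Replicate 2 joins a mutant array of set 1 to a wild-type array of set 3. For age in mutants the count was 0 except for 4 with array weights, and 0 to 2 without single replicates. With array weights 2674 of all 34764 probe sets rose and 9799 fell in that contrast. For age in wild type 2401 of all 34764 probe sets rose and 1315 fell with a common median. With quantile normalization 2480 rose and 2604 fell, and with the unmoderated two-way model 951 rose and 1542 fell. The main count of 4 members became 1 in each of these, the last at its stricter threshold of 0.025 (Nr5a1 had an adjusted p of 0.0447 there). It was 0 with the array set block (also with a common median, a setting chosen after seeing the data), within array set 1 and without set 3, and 0 to 4 without single replicates. No age contrast was fitted with the replicate block, because replicate numbers were nested in age, and at 14 dpp the block changed no call.

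Log2 differences of the brightest probe sets also changed sign, and none of the values that did so passed the threshold. At 14 dpp Star was −0.19 with the set block, −0.95 within set 1, −0.21 with the replicate block and −0.22 with the block and a common median. Hsd3b1 was −0.25 within set 1, −0.10 with a common median, −0.00168 with array weights, −0.086 with the replicate block and −0.0143 with the block and a common median. Cyp17a1 was −0.34 within set 1 and −0.00786 with the replicate block, Cyp11a1 was 0.011 and Nr5a1 −0.12 within set 2, and Hsd17b3 was 0.043 with array weights. Without single replicates Star ran from −0.19 to 0.65 and Hsd3b1 from −0.10 to 0.11. At 17 dpp Cyp11a1 was −0.0082 with the block, −0.16 within set 3 and −0.19 with the block and a common median. Hsd17b3 was −0.21 within set 1 and without set 3, and Nr5a1 was −0.090 within set 3 and −0.0371 with the block and a common median.

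For age in mutants, Star was 0.56 within set 1 and 0.20 with the block and a common median. Cyp11a1 was 0.41 with the block, 0.74 within set 1, 0.51 without set 3 and 0.65 with the block and a common median. Cyp17a1 was 0.045 within set 1 and 0.23 with the block and a common median. Hsd3b1 was 0.34, 0.56, 0.41 and 0.58 under the same 4 settings as Cyp11a1, 0.29 with a common median, 0.056 with quantile normalization and −0.23 to 0.23 without single replicates. Hsd17b3 was 0.24 with the block, 0.11 within set 1 and 0.48 with the block and a common median, where Nr5a1 was 0.0014. For age in wild type that setting gave 0.30 for Cyp11a1, 0.028 for Hsd3b1 and 0.074 for Nr5a1. The cause of these changes was not tested. Dim probe sets, and a single wild-type array in sets 1 and 2 at 1 age each, limit what the within-set values can show.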
